A study of Mus musculus with 12 samples.

Results

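The 8 enzymes described here act along the route from acetyl-CoA units to cholesterol. They were taken by symbol (Hmgcs1, Idi1, Fdft1, Sqle, Lss, Cyp51, Hsd17b7 and Dhcr7), and each was required to have a row of the value table whose platform annotation gives that symbol alone. All 8 had such a row, out of 18820 different symbols on 21218 rows with 1 symbol. Expression was measured on 12 Affymetrix arrays of the nucleus accumbens, core and shell dissected together, from 12-week-old C57BL/6N offspring that had been through behavioural tests. The mothers of 6 offspring had received saline and those of the other 6 had received 5 mg/kg poly(I:C), which resembles the double-stranded RNA of viruses, both into a vein on gestation day 17. The sources used here give neither sex nor litter. The p-values take the 12 animals as independent, and they measure the spread between these animals only.

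Brain cholesterol is made within the brain, because the blood-brain barrier keeps out the cholesterol of plasma lipoproteins. Oligodendrocytes need large amounts for myelin, and astrocytes supply neurons with cholesterol on apolipoprotein E particles. The genes of the pathway are switched on together by the transcription factor SREBP-2, which is released from the endoplasmic reticulum when membrane sterol falls. In the order of the reactions, Hmgcs1 makes HMG-CoA, Idi1 interconverts the isoprenoid building blocks, Fdft1 joins farnesyl units into squalene, Sqle adds an epoxide to squalene and Lss closes the ring to lanosterol. Cyp51 then removes a methyl group from lanosterol, Hsd17b7 reduces a keto group during removal of further methyl groups, and Dhcr7 reduces 7-dehydrocholesterol to cholesterol.

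The sequences before the start sites of 4 of the genes are shown first, since the results turn on how far these genes vary together. RefSeq promoters of GRCm38.p6 were matched by symbol for 6 of the 8 genes (not Fdft1 and Sqle), and the 250 bases before each start were searched on both strands. The searched motifs were the sterol response element TCACNCCAC, the CCAAT box CCAAT, the GC box GGGCGG and the E box CACGTG, and the matches are in capitals. The motifs were settled after a first search of these promoters, and no matches overlapped each other. Hmgcs1 and Idi1 are shown as genes that varied together across arrays, Hsd17b7 as the gene with the largest difference between groups, and Lss as the gene with no pair that passed over all 12 arrays.
Hmgcs1: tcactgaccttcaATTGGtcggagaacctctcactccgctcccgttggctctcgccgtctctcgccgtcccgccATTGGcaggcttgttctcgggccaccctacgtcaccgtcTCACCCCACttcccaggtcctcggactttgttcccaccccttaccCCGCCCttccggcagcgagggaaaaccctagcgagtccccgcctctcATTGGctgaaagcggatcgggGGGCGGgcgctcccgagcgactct
Idi1: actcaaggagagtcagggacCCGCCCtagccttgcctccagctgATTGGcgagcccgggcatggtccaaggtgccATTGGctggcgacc
Hsd17b7: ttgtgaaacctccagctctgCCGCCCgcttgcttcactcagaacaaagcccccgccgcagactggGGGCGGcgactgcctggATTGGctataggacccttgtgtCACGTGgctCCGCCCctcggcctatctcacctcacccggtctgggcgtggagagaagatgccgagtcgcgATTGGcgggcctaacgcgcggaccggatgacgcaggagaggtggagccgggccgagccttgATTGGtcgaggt
Lss: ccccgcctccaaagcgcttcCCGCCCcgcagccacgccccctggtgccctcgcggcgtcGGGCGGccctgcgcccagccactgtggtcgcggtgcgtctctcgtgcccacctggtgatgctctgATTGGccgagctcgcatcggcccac
The Hmgcs1 stretch is chr13:119690101-119690350 on the plus strand and holds the only sterol response element match among the 6 genes, TCACCCCAC, with its first base 137 bases before the start. That motif was found in 1.05% of all 32851 promoters and before at least 1 start of 1.22% of all 27025 genes. The Idi1 stretch is chr13:8885517-8885605 on the plus strand, the Hsd17b7 stretch chr1:169969206-169969452 on the minus strand and the Lss stretch chr10:76531419-76531567 on the plus strand. A CCAAT box and a GC box were present before at least 1 start of all 6 genes. Of all 27025 genes, 37.5% and 35.4% had such a start, and of all promoters 33.8% and 32.7% held the motif. The E box was present for Hsd17b7 and for 1 of 3 starts of Dhcr7, against 6.86% of all genes and 6.02% of all promoters. These matches describe letters in this window and do not show binding. Only the letters given above were searched, so a gene without a match is not shown to lack an element.

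No enzyme of the group differed between poly(I:C) and control offspring past the adjusted threshold of 0.05, although all 8 had the higher mean level after poly(I:C). The largest differences were those of Hsd17b7, Fdft1 and Dhcr7, which correspond to 1.26-fold, 1.19-fold and 1.13-fold higher levels. Of all rows, 0.0613% passed that threshold, 0.0283% as higher and 0.033% as lower (limma over 21218 rows, Benjamini-Hochberg adjustment). At an unadjusted p under 0.05, 3 of the 8 were higher and 0 lower, where 7.83% of all rows were higher and 6.57% lower. The groups overlapped for each of the 8, while 1.13% of all rows had groups that did not overlap (0.603% with poly(I:C) higher). The median difference of the 8 was 0.13 on the log2 scale against 0.002 for all rows, and 50.9% of all rows were higher in value. All 8 lie above the median level of the tested rows. In a fit of only the rows at or above that level, 3 of the 8 were again higher at an unadjusted p under 0.05. Of those rows 11.2% were higher at that p, and their median log2 difference was 0.022.

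Hsd17b7, the reductase of the demethylation steps, had levels of 5.83, 6.38 and 6.64 (lowest, median and highest log2 level of the control arrays) and of 6.52, 6.65 and 6.79 on the poly(I:C) arrays. Control 4 was the lowest of the 12 arrays, and 4 of the 6 controls were below every poly(I:C) array. The group means were 6.32 ± 0.29 and 6.65 ± 0.13 (SD, n = 6 each). They differed by 0.34 on the log2 scale, with a 95% interval of 0.10 to 0.58 and an adjusted p of 0.204 (limma).

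Fdft1, the squalene synthase, had log2 levels of 8.01, 8.45 and 8.55 (lowest, median, highest) in controls and of 8.49, 8.64 and 8.78 in poly(I:C) offspring. Here too 4 controls were below every poly(I:C) array, and 4 poly(I:C) arrays were above every control. The means were 8.38 ± 0.20 and 8.63 ± 0.11 (SD, n = 6 each). They differed by 0.25 on the log2 scale (interval 0.07 to 0.43, adjusted p = 0.208). A further pair of rows is annotated to both Fdft1 and the cathepsin gene Ctsb and so could not count for Fdft1. Their log2 differences were 0.21 and -0.03.

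Dhcr7, the last enzyme of the route, had log2 levels of 6.37, 6.50 and 6.72 (lowest, median, highest) in controls and of 6.55, 6.73 and 6.76 in poly(I:C) offspring. Again 4 controls were below every poly(I:C) array, and control 3 and control 6 (6.72) lay within the poly(I:C) range. The means were 6.52 ± 0.12 and 6.69 ± 0.08 (SD, n = 6 each). They differed by 0.17 on the log2 scale (interval 0.05 to 0.30, adjusted p = 0.200). Hsd17b7, Fdft1 and Dhcr7 each kept an unadjusted p under 0.05 when any 1 of the 12 arrays was left out, with the highest p at 0.0224, 0.0251 and 0.0218 (limma).

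**Figure D1:**
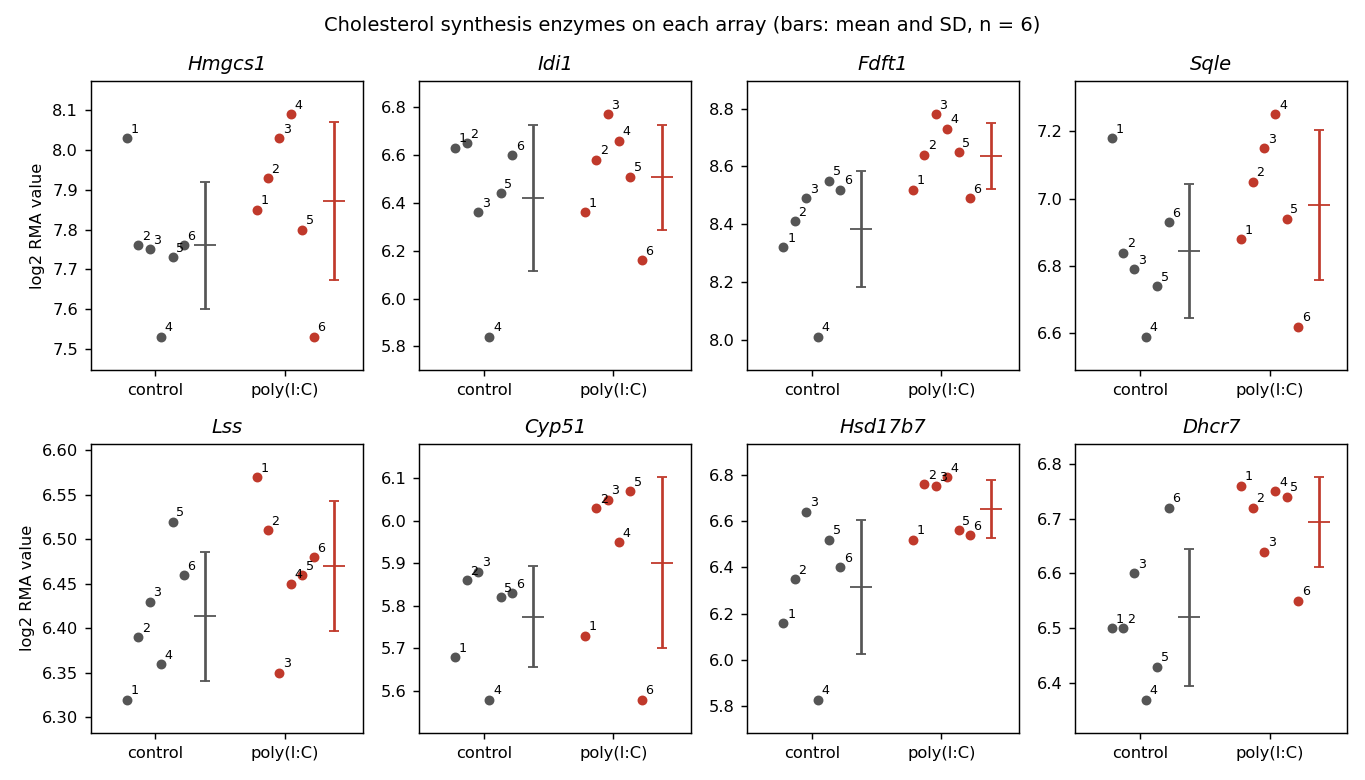
Log2 RMA level (vertical axis, its range set per gene) of each of the 8 enzymes on the 6 control arrays (grey) and the 6 poly(I:C) arrays (red), with replicate numbers beside the points and bars for the mean and SD of 6 arrays. The groups overlap in every panel; control 4 lies lowest of the controls for each gene except Lss, and poly(I:C) 6 lies low for Hmgcs1, Idi1, Sqle and Cyp51.

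The other 5 enzymes had intervals that included 0. Hmgcs1, the HMG-CoA synthase, had log2 levels of 7.53, 7.76 and 8.03 (lowest, median, highest) in controls, and of 7.53, 7.89 and 8.09 in poly(I:C) offspring. The Hmgcs1 means differed by 0.11 on the log2 scale (interval -0.08 to 0.31, adjusted p = 0.608). Sqle, a flux-controlling enzyme of the route, ran from 6.59 through a median of 6.82 to 7.18 in controls and from 6.62 through 6.99 to 7.25 in poly(I:C) offspring. The Sqle means differed by 0.14 on the log2 scale (interval -0.09 to 0.37, adjusted p = 0.590). For both genes control 4 and poly(I:C) 6 were the lowest arrays of their groups, and control 1 stood near the highest poly(I:C) arrays.

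Cyp51, the lanosterol demethylase, had log2 levels of 5.58, 5.82 and 5.88 (lowest, median, highest) in controls and of 5.58, 5.99 and 6.07 in poly(I:C) offspring. Its poly(I:C) arrays split, with 4 above every control and with arrays 1 and 6 at 5.73 and 5.58. The Cyp51 means differed by 0.13 on the log2 scale (interval -0.06 to 0.31, adjusted p = 0.522).

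Idi1, the isomerase, was the gene whose direction rested on 1 array. Its log2 levels were 5.84, 6.52 and 6.65 (lowest, median, highest) in controls and 6.16, 6.54 and 6.77 in poly(I:C) offspring. The log2 difference was 0.09 with all arrays (interval -0.20 to 0.37, adjusted p = 0.811) and -0.03 without control 4 (adjusted p = 0.941). The other row of Idi1 gave a log2 difference of 0.09 and followed the first across the 12 arrays with a correlation of 0.98. Lss, the cyclase, varied little, from 6.32 to 6.52 in controls and from 6.35 to 6.57 in poly(I:C) offspring on the log2 scale. The Lss means differed by 0.06 on the log2 scale (interval -0.04 to 0.15, adjusted p = 0.600).

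The arrays were alike in scale, with medians from 4.78 to 4.85 and pairwise correlations from 0.991 to 0.997, and no array repeated another (0 identical pairs). Markers of medium spiny neurons, the main neurons of the accumbens, were well above the median level of tested rows (5.47), with a list mean of 9.06 ± 0.20 in controls against 9.15 ± 0.14 after poly(I:C) (SD, n = 6 each, 7 of 9 listed markers measured). Markers of neighbouring tissue were uneven. The mean of 8 cortical neuron markers ran from 5.32 to 6.48 in controls and from 5.83 to 6.65 in poly(I:C) offspring, and that of 8 choroid plexus markers from 4.76 to 7.34 and from 4.57 to 4.82. Of the cortical markers 7 were higher in value after poly(I:C), 5 at an unadjusted p under 0.05, and all 8 choroid plexus markers were lower in value, 2 at that p. The mean of 6 septal, pallidal and diencephalic markers ran from 5.48 to 6.09 and from 5.45 to 6.01. Control 6 (7.34) and control 4 (6.44) were highest in choroid plexus markers. In dissected tissue, fewer cells of a type and less RNA per cell cannot be told apart.

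The direction of the smaller differences turned with those tissue markers. With the mean levels of the cortical, septal and choroid plexus lists as covariates, 4 of the 8 enzymes were higher in value and 4 were lower. Hmgcs1 then stood at -0.12, Idi1 at -0.15, Sqle at -0.10 and Cyp51 at about 0 (log2 differences). Hsd17b7 (0.20), Fdft1 (0.16), Dhcr7 (0.15) and Lss (0.09) stayed positive, and Dhcr7 alone kept an unadjusted p under 0.05 (adjusted p = 0.503, limma), where 3.73% of all rows were higher at that p. Without control 4 and control 6, Hsd17b7 stood at 0.24, Fdft1 at 0.19 and Dhcr7 at 0.19, again the 3 with an unadjusted p under 0.05 (4.34% of all rows were higher at that p), and 7 of 8 enzymes were higher in value. Without poly(I:C) 6 the number at an unadjusted p under 0.05 was 6, namely these 3 with Hmgcs1 (log2 difference 0.18), Sqle (0.21) and Cyp51 (0.19), where 9.96% of all rows were higher at that p.

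Myelin genes went the other way. The 13 measured markers of mature oligodendrocytes all had a lower value after poly(I:C), with a median log2 difference of -0.34 and 11 at an unadjusted p under 0.05, and 1 of them, the myelin gene Mobp, fell past the adjusted threshold. Mobp went from 9.00 ± 0.16 to 8.49 ± 0.06 (SD, n = 6 each), or by -0.51 on the log2 scale (adjusted p = 0.0411, limma). That call was lost in 4 other fits over all 12 arrays and without controls 4 and 6 together. It was also lost on leaving out any 1 of controls 4, 5 and 6 or of poly(I:C) 2 to 5. Where the call was lost, the adjusted p ran from 0.0612 to 0.238 (limma). In each of these settings where the call was lost, 0 of all rows passed. In 1 of the 4 fits the covariate was the mean of the list that holds Mobp. The mean of the myelin list ran from 7.55 to 8.11 in controls and from 7.42 to 7.57 in poly(I:C) offspring. With the mean of the myelin list as a covariate the median difference of the 8 cholesterol enzymes was 0.20. The same number of them, 3, then had an unadjusted p under 0.05, where 7.59% of all rows were higher at that p. Of the other lists, 5 of 7 oligodendrocyte precursor markers and 2 of 6 microglial markers were lower at an unadjusted p under 0.05 and none higher, and 0 of 9 astrocyte and 0 of 5 endothelial markers reached that p. Of the 7 medium spiny neuron markers 1, Pdyn, was higher at that p (log2 difference 0.32, adjusted p = 0.237, limma), and of the 6 septal, pallidal and diencephalic markers 1 was higher and 2 were lower. The ranges of the myelin mean barely overlapped between the groups, so the fit with that mean cannot tell it from the group. The part of myelin RNA in the enzyme levels was not tested.

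**Figure D2:**
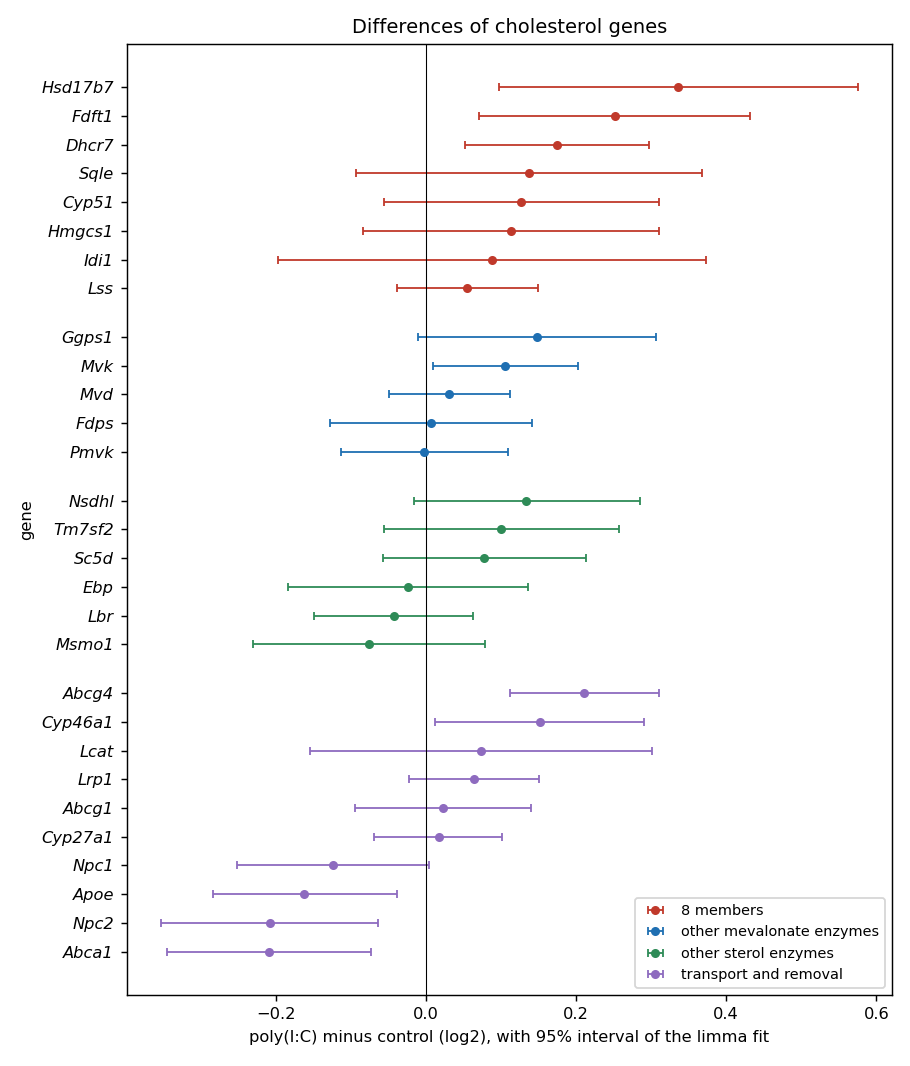
Log2 difference, poly(I:C) minus control (horizontal axis), with its 95% interval from the limma fit for the 8 enzymes (red), the other measured mevalonate enzymes (blue), the other measured sterol enzymes (green) and genes of cholesterol transport and removal (purple). Intervals of Hsd17b7, Fdft1, Dhcr7, Mvk, Abcg4 and Cyp46a1 lie above 0 and those of Abca1, Npc2 and Apoe below 0, all before adjustment over the table.

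The remaining enzymes of the route were spread around 0. Of 14 further synthesis genes 11 were measured, 7 higher and 4 lower in value, 0 passed the adjusted threshold and 1 reached an unadjusted p under 0.05. Their median log2 difference was 0.03. Among the mevalonate and isoprenoid enzymes, Mvk (mevalonate kinase) had 6.20 ± 0.09 in controls against 6.31 ± 0.06 after poly(I:C) (SD, n = 6 each, log2 difference 0.11, adjusted p = 0.308). Ggps1, which draws isoprenoids off to geranylgeranyl diphosphate, stood at 0.15 and Mvd at 0.03 (log2 differences). Among the sterol enzymes Nsdhl, which acts with Hsd17b7 in removing methyl groups, stood at 0.13, Tm7sf2 at 0.10 and Sc5d, which acts just before Dhcr7, at 0.08. Mvd, Tm7sf2 and Sc5d turned to just below 0 with the tissue marker covariates.

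Control genes of the pathway gave no call. Of 8 measured genes of SREBP processing and lipoprotein uptake, 6 were higher and 2 lower in value, and 0 reached an unadjusted p under 0.05. Srebf2, which encodes SREBP-2, stood at 0.09, its escort protein gene Scap at 0.05 and Srebf1, which encodes SREBP-1, at -0.11 (log2 differences), the last turning to 0.18 with the myelin mean as a covariate and to 0.02 with the tissue marker covariates. The other row of Scap gave -0.09. The 10 fatty acid synthesis genes of the SREBP pathway had a median log2 difference of 0.02 and 0 at an unadjusted p under 0.05, with Me1 at 0.12, Acaca at 0.07 (-0.06 on its other row) and Fasn at 0.06.

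Genes that move or remove cholesterol held differences in both directions. Of 10 measured, 0 passed the adjusted threshold, and at an unadjusted p under 0.05 there were 2 higher and 3 lower. At that p 7.83% of all rows were higher and 6.57% lower. Abcg4, a transporter that exports sterols from neurons and astrocytes, had 7.46 ± 0.08 in controls against 7.67 ± 0.08 after poly(I:C) (SD, n = 6 each). The Abcg4 means differed by 0.21 on the log2 scale (interval 0.11 to 0.31, adjusted p = 0.0875). With weights for array quality the adjusted p was 0.0436 (limma), in a fit where 0.66% of all rows passed the adjusted threshold. Each poly(I:C) array was above each control for Abcg4, the highest control being at 7.54 and the lowest poly(I:C) array at 7.57. Of all rows, 0.603% had groups that did not overlap in that direction. Cyp46a1, the neuronal enzyme that turns cholesterol into a form that can leave the brain, stood at 0.15. On the lower side were Abca1, which loads cholesterol onto apolipoprotein E, at -0.21, Npc2, which carries cholesterol out of lysosomes, at -0.21, and Apoe at -0.16 (log2 differences, limma adjusted p from 0.174 to 0.230 for the lower 3).

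Across the 12 arrays most of the enzymes varied together. Of the 28 pairs, 25 had a positive Pearson correlation, with a median of 0.59, and 10, all positive, passed after Benjamini-Hochberg adjustment over the pairs (permutation test, 100000 resamples, two-sided). Taken as deviations from each group's mean, which removes the group difference, 24 pairs were positive with a median of 0.51 and 8 passed. On these deviations, each pair was set beside the share of all rows with at least as high a correlation with its first gene. For the 8 pairs that passed, that share ran from 0.00943% (Hmgcs1 with Sqle) to 6.48% (Cyp51 with Hsd17b7). For the pairs that did not pass, it ran from 4.55% (Idi1 with Hsd17b7) to 88.7% (Sqle with Lss). Many of these were matched by a large part of all rows. Hmgcs1 stood at 10.8% with Fdft1 and at 18.8% with Hsd17b7, and Sqle at 22.9% with Hsd17b7. Pairs with Dhcr7 ran from 10.2% (Idi1) to 25.1% (Lss). The correlations share the 12 arrays, and arrays differ in tissue makeup as described above.

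**Figure D3:**
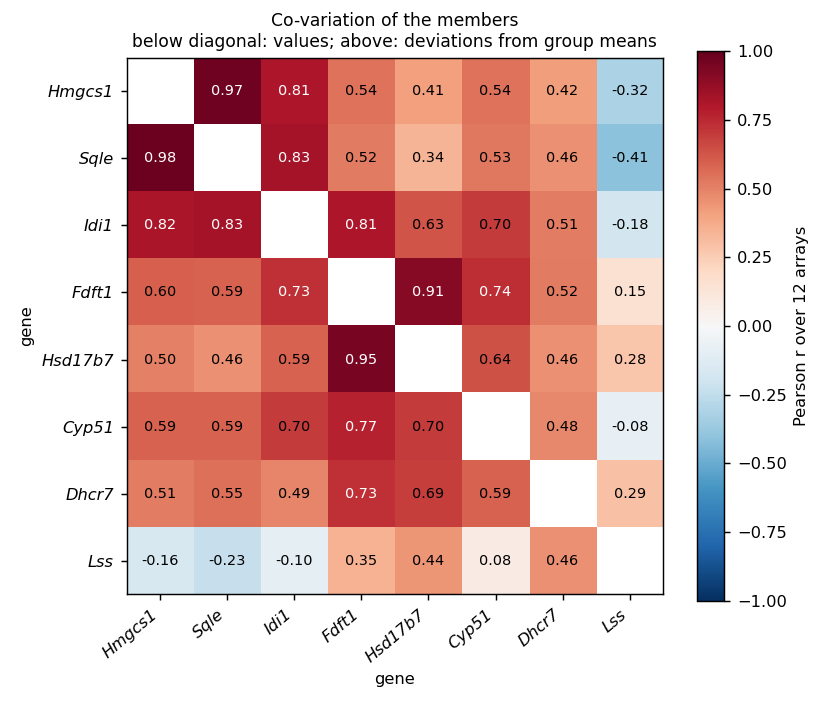
Pearson correlation over 12 arrays for each of the 28 pairs of enzymes (both axes list the genes), on values as deposited below the diagonal and on deviations from group means above it, with colour from -1 (blue) to 1 (red). Hmgcs1, Sqle and Idi1 form a block with correlations from 0.81 to 0.98, Fdft1 and Hsd17b7 reach 0.95 and 0.91, and the Lss row is pale.

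Hmgcs1 and Sqle, which act on either side of the isoprenoid steps, were the closest pair. Their correlation was 0.98 (Spearman 0.97, permutation p = 1e-05 for each, the smallest that 100000 resamples can give, adjusted p = 0.00028). It was 0.96 within controls (exact permutation p = 0.00139, n = 6) and 0.98 within poly(I:C) offspring (exact permutation p = 0.00278, n = 6), and 0.96 without the 2 arrays farthest from the Hmgcs1 median. Among the 21217 other rows, Sqle ranked 1st in correlation with Hmgcs1 on the values as deposited and 2nd on deviations from group means. Control 1, poly(I:C) 3 and poly(I:C) 4 were high for both genes, and control 4 and poly(I:C) 6 were low for both.

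Idi1 went with this pair, at 0.82 with Hmgcs1 (Spearman 0.77, permutation adjusted p = 0.00497) and 0.83 with Sqle (Spearman 0.80, permutation adjusted p = 0.00299). Without the 2 arrays farthest from the median of the first gene of each pair these were 0.78 (permutation p = 0.00712) and 0.72 (permutation p = 0.0204), and neither passed after adjustment. On deviations from group means, 1.23% of all rows correlated with Hmgcs1 at least as strongly as Idi1 did.

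Fdft1 and Hsd17b7 were the other close pair, at 0.95 (Spearman 0.80, permutation p = 3e-05, adjusted p = 0.00042). It was 0.94 within controls (exact permutation p = 0.0111, n = 6) and 0.81 within poly(I:C) offspring (exact permutation p = 0.0889, n = 6), and 0.87 without the 2 arrays farthest from the Fdft1 median (permutation p = 0.00165). On deviations from group means Hsd17b7 ranked 19th among all rows in correlation with Fdft1. Cyp51 stood at 0.77 with Fdft1 (Spearman 0.74, permutation adjusted p = 0.00739) and at 0.67 without the farthest 2 arrays, where it no longer passed (permutation adjusted p = 0.147).

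**Figure D4:**
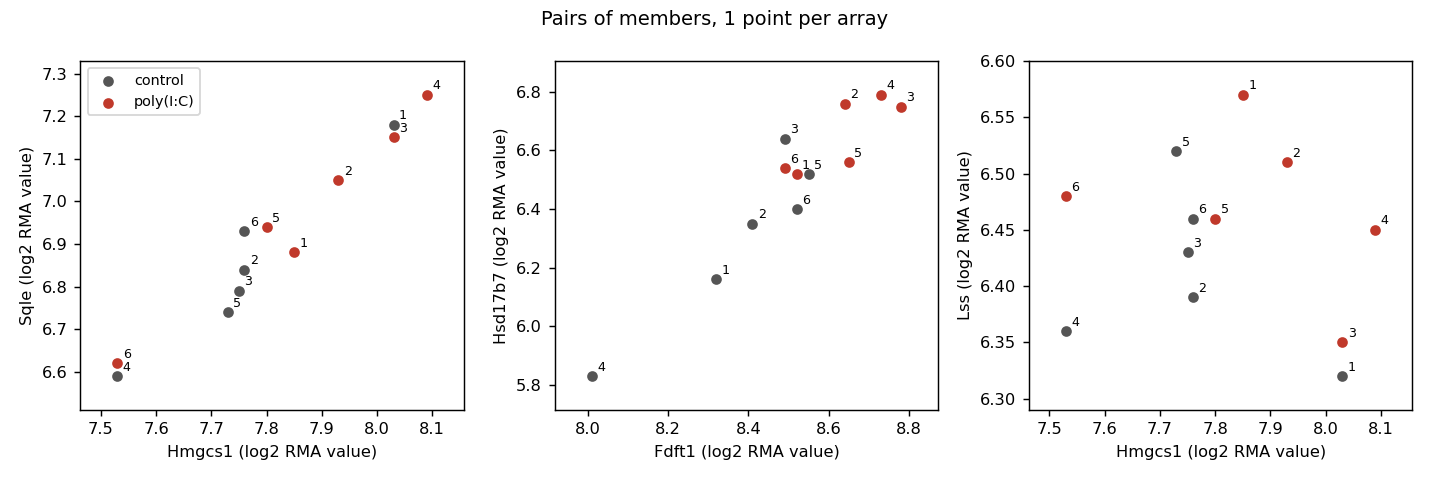
Log2 RMA levels of 3 pairs of enzymes, 1 point per array with its replicate number, for controls (grey) and poly(I:C) offspring (red). Hmgcs1 against Sqle (0.98) and Fdft1 against Hsd17b7 (0.95) lie close to a line that holds both groups, with control 4 at the low end, while Hmgcs1 against Lss (-0.16) shows no such line.

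The number of pairs that passed moved with single arrays. Control 4 was the lowest of all 12 arrays for 6 of the 8 enzymes and the lowest control for 7, and its mean deviation over the 8 genes was -0.37 on the log2 scale. Poly(I:C) 6 was the lowest poly(I:C) array for 6 genes, with a mean deviation of -0.14. Without control 4 the median correlation of the 28 pairs was 0.39, and the number of pairs that passed was 4, namely Hmgcs1 with Sqle (0.97), Hmgcs1 with Idi1 (0.78), Idi1 with Sqle (0.81) and Fdft1 with Hsd17b7 (0.87). These 4 pairs also passed when any other single array was left out. The other 6 pairs that passed with all arrays were Idi1 with Fdft1 and Cyp51, Fdft1 with Cyp51 and Dhcr7, and Hsd17b7 with Cyp51 and Dhcr7. Without control 1, where Hmgcs1 and Sqle are high but Hsd17b7 is low, 19 pairs passed, and without poly(I:C) 2 or 4 there were 6 and 5.

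**Figure D5:**
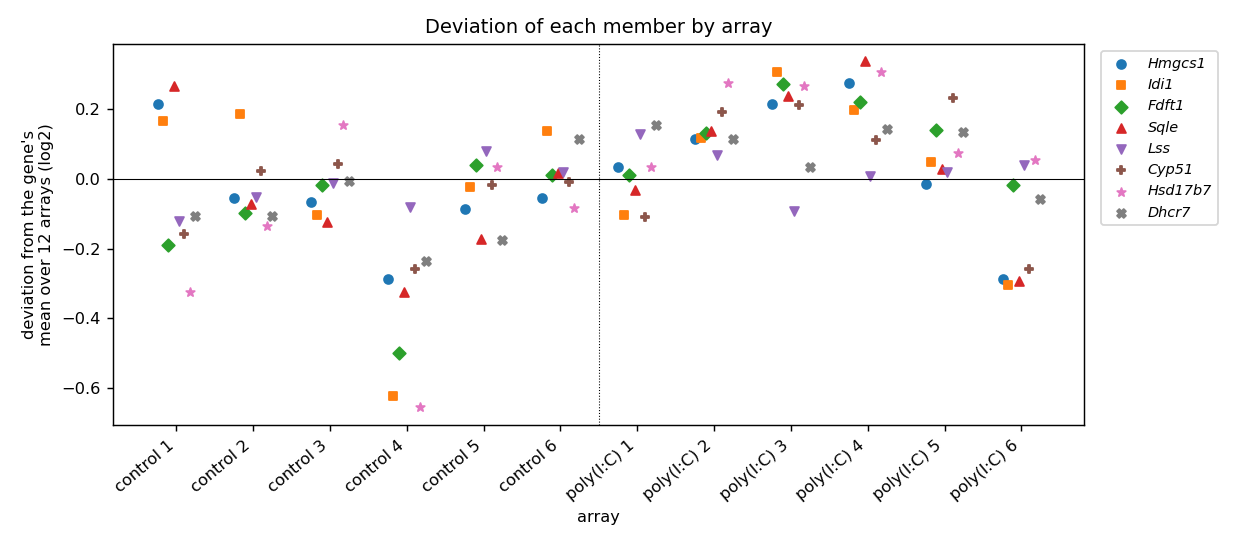
Deviation of each of the 8 enzymes from its own mean over the 12 arrays (vertical axis, log2), by array, controls left and poly(I:C) offspring right of the dotted line, with 1 symbol per gene. All 8 enzymes lie below 0 on control 4 and above 0 on poly(I:C) 2 and 4, and on control 1 Hmgcs1, Sqle and Idi1 lie above 0 while the other 5 lie below.

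With all 12 arrays, no pair with Lss passed. Its 7 correlations ran from -0.23 with Sqle to 0.46 with Dhcr7, and the lowest adjusted p was 0.173 (permutation test). Without control 5, Lss with Dhcr7 stood at 0.70 and passed (permutation adjusted p = 0.0435). Lss with Fdft1 was 0.68 within controls (exact permutation p = 0.126, n = 6) and -0.77 within poly(I:C) offspring (exact permutation p = 0.0667, n = 6), and the difference between the groups was not tested. Lss also had the smallest spread of the 8, with a control SD of 0.07 and a poly(I:C) SD of 0.08. Dhcr7 correlated at 0.46 to 0.73 with each of the other 7 genes, and passed with Fdft1 (0.73) and Hsd17b7 (0.69). On deviations from group means 0 of its 7 pairs passed, with values from 0.29 to 0.52.

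No cell type or tissue marker list followed an enzyme past the threshold. Of 72 relations between the 8 enzymes and 9 marker lists, 0 passed adjustment (lowest adjusted p = 0.117, permutation test with 100000 resamples). At an unadjusted p under 0.05 there were 5, and with Spearman correlation 0 passed adjustment and 10 had an unadjusted p under 0.05. The strongest were Dhcr7 with the microglial mean at -0.81 (Spearman -0.80, permutation p = 0.00196) and Hmgcs1 with the cortical neuron mean at 0.77 (Spearman 0.74, permutation p = 0.00326), both with an adjusted p of 0.117. Without the farthest 2 arrays these were -0.75 and 0.79. Sqle stood at 0.72 with the cortical mean (Spearman 0.69, permutation adjusted p = 0.239). With the myelin mean the 8 enzymes ran from -0.41 to 0.01, and from -0.27 to 0.34 on deviations from group means. Dhcr7 with the myelin mean moved from -0.38 to -0.82 without the farthest 2 arrays (permutation p = 0.00312), and 0 of the 72 relations passed adjustment in that setting.

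Many genes outside sterol synthesis followed the mean profile of the 8 enzymes, which the enzymes themselves followed unevenly. The measure of likeness was Pearson's correlation over 12 arrays, on deviations from group means, with the mean standardised deviation of the 8 enzymes, and it is a description of these arrays. Each enzyme is itself part of that mean. Control 4, the lowest of all 12 arrays for 6 of the 8 enzymes, is included, and no values of this measure are given without it. Lss stood at 0.13 (rank 9288 of 21218 rows), and the others ran from 0.72 for Dhcr7 (rank 937) to 0.90 for Fdft1 (rank 43). The 10 closest genes at or above the median level were Car10 (0.98), Hivep1, Atp6v1a, Ina and Sel1l (0.96 each), Mapk8ip3, Baalc and Katnal1 (0.95 each), and Klhdc2 and Lhfp (0.94 each). Ina encodes a neuronal intermediate filament, Atp6v1a a subunit of the vacuolar proton pump and Sel1l a component of endoplasmic reticulum protein quality control. Their log2 differences between groups ran from 0.04 to 0.19 and 0 of the 10 passed the adjusted threshold, with 1 (Atp6v1a, adjusted p = 0.323, limma) at an unadjusted p under 0.05.

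On the same measure, the 11 other measured synthesis enzymes ran from 0.17 for Lbr to 0.79 for Mvk, Ggps1 and Ebp, and Mvk ranked 454th of 21218 rows. Insig1, which holds SREBP back in the endoplasmic reticulum and is itself a sterol-regulated gene, stood at 0.75, and Mylip, which marks the LDL receptor for breakdown, at 0.81. The transcript of SREBP-2 itself, Srebf2, stood at 0.04 and Scap at -0.60. Abcg4 stood at 0.79. Apoe (0.28), Abca1 (0.21) and Cyp46a1 (0.06) had low values.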

How the data were processed

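The authors deposited 1 table of log2 values, made with RMA and Partek 6.6 per the submitters' processing notes, for 12 Mouse Gene 1.1 ST arrays with 250 ng of RNA each. RMA makes array distributions alike, so a change shared by most genes would not show. The sources used here name no RMA settings and no genome build. Values of 35556 rows ran from 1.86 to 12.29. There were 21218 rows with 1 gene symbol, 1881 with several and 12457 with none listed, and only the first kind was tested. For a gene with several rows the row with the highest mean was used.

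R 4.3.3 and limma 3.58.1 (lmFit and eBayes, group as the only term, 10 residual and 3.94 prior degrees of freedom) gave log2 differences, 95% intervals and Benjamini-Hochberg adjusted p-values over the 21218 rows. The number of arrays limits the precision. The fit was tested on simulated data with known answers. Groups came from the sample titles. Correlations used permutations of the pairing, within groups for deviations from group means. The named genes were the 8 enzymes, the 3 with the smallest p in each pathway list, the marker genes a result turns on, and the 10 most alike genes. Cyp46a1, Apoe, further pathway genes named for their likeness and the motifs were chosen after values were seen. The enzymes and lists were chosen with earlier results of these data known. Alternatives were 2 further scalings, a filter on dim rows, all rows, another variance model, array weights, a replicate block, tissue or myelin marker means as covariates, the other row of a gene, Spearman correlation, and leaving out arrays.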

Additional observations from a re-analysis of the deposited data

Results flagged for a closer look

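In 68 groups of 6 arrays (34 genes, each with both groups), 4 held a single array far from the others; chance alone gives about 1 in 20. Idi1 was at 5.84 in control 4, with the next control at 6.36 and the highest at 6.65. In poly(I:C) 6, Nsdhl was at 7.26 (next 7.59), the prodynorphin gene Pdyn at 7.23 (next 6.84) and the choroid plexus gene Ttr at 6.80 (next 5.51).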

How the results depend on the processing

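With 6 animals a group, the enzymes' 95% intervals were 0.19 to 0.57 wide on the log2 scale. Over the 23 alternatives 0 enzymes passed the adjusted threshold (lowest adjusted p = 0.0946, Dhcr7 with array weights), and the median difference of the 8 was 0.045 with the neighbouring-tissue covariates and ran from 0.088 to 0.198 on leaving out 1 array. Of the 8 enzymes, 5 had an unadjusted p under 0.05 with array weights (9.49% of all rows higher at that p), 1 with the 3 neighbouring-tissue marker means as covariates (3.73%), and 3 to 6 on leaving out 1 array (6 without poly(I:C) 6, 9.96%).

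With those tissue means as covariates the sign turned for Hmgcs1 (-0.116), Idi1 (-0.146), Sqle (-0.10), Cyp51 (-0.00018), Mvd (-0.006), Tm7sf2 (-0.037), Sc5d (-0.028) and Srebf1 (0.020). With the myelin mean it turned for Mvd (-0.021), Srebf1 (0.181) and the septal and diencephalic marker Tcf7l2 (0.112). The other row of the gene gave -0.087 for Scap and -0.055 for Acaca. Idi1 was at -0.013 without controls 4 and 6, and ran from -0.029 to 0.157 on leaving out 1 array. The cause of these turns was not tested.

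Over the 39 measured genes of the other pathway lists, 3 were higher and 3 lower at an unadjusted p under 0.05. Of all rows, 7.83% were higher and 6.57% lower at that p. The higher count was 5 with array weights (9.49% of all rows higher at that p) and 1 with tissue covariates (3.73%). It was 7 with the myelin mean (7.59%) and 1 without controls 4 and 6 (4.34%). On leaving out 1 array it ran from 1 to 7 (5.64% to 9.96%). The lower count was 0 with the myelin mean and 3 to 5 on leaving out 1 array. With array weights 1 gene, Abcg4, passed the adjusted threshold, where 0.66% of all rows passed. Pairs of enzymes that passed numbered 5 by Spearman correlation, 2 without the farthest 2 arrays, 4 without controls 4 and 6, and 4 to 19 on leaving out 1 array.

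Arrays with the same replicate number correlated at -0.20 to 0.27 in their deviations from group means, and 1 of 6 numbers had its own number as the best match. Such a check cannot exclude that arrays with the same number share a batch or a litter. With the replicate block 0 enzymes passed the adjusted threshold, while over all rows the number of calls went from 13 to 0. In that fit 3 enzymes had an unadjusted p under 0.05 (7.17% of all rows higher at that p), and the median difference was 0.132.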
